A study of Mus musculus with 9 samples.

Results

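The mucosa of the small intestine was compared between mice fed a high-fat diet based on safflower oil (HF-SO) and mice fed a high-fat diet based on olive oil (HF-OO), in 3 segments named SI1, SI2 and SI3 from the proximal to the distal end. The comparison used 6 of the 9 arrays of the study, chosen by their labels as the HF-SO and the HF-OO array of each segment, and it was made within a segment. All mice were male C57BL/6J, 9 weeks old when the diets began, and had eaten the diet for 2 weeks. The labels give HF-OO a P/S value of 4.6 and HF-SO a higher one. The remaining 3 arrays came from a palm oil diet (HF-PO, P/S value 1.0) and are given only as side values. The mucosa was scraped from 3 parts of equal length, with adhering fat and pancreas removed. Each array held pooled RNA of 6 mice, so every combination of diet and segment was measured once. The 3 pools of a diet came from the same 6 mice and are not independent replicates, so no difference has a replicate error and no p-value is given. Agreement among segments shows that a difference recurred along the gut of these mice, not that it would recur in other mice.

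Olive oil is rich in oleic acid, a monounsaturated fatty acid, and common safflower oil is rich in linoleic acid, a polyunsaturated one. Enterocytes take up dietary fatty acids, build them into triglycerides and secrete them in chylomicrons. Oleic acid can also be made in the cell by stearoyl-CoA desaturases, and polyunsaturated fats are known to lower desaturase transcripts in liver. Intestinal cells also carry a circadian clock, in which CLOCK and ARNTL drive their own repressors and a set of output genes over the day. The labels do not give the time of day at which the tissue was taken.

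Signals are the authors' linear array intensities. Differences are HF-SO minus HF-OO on the log2(signal + 16) scale, which understates the change of dim genes, and 10977 genes bright enough over all arrays were compared. A gene was counted when it differed by at least 1.5-fold (0.58 on this scale) the same way in SI1, SI2 and SI3, and its smallest difference is the one nearest 0 among the segments. Only 2 genes were higher after HF-SO by this rule (0.0182% of the genes compared) and 7 were lower (0.0638%). The higher genes were S1pr4 and Alox12e. The lower genes were Scd2, Nlgn2, Ciart, Dbp, Pck1, Wee1 and Igkv15-103. With no size limit, 1457 genes were higher in every segment (13.3%) and 1485 were lower (13.5%), and the median smallest difference was 0.05 in each direction.

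**Figure D1:**
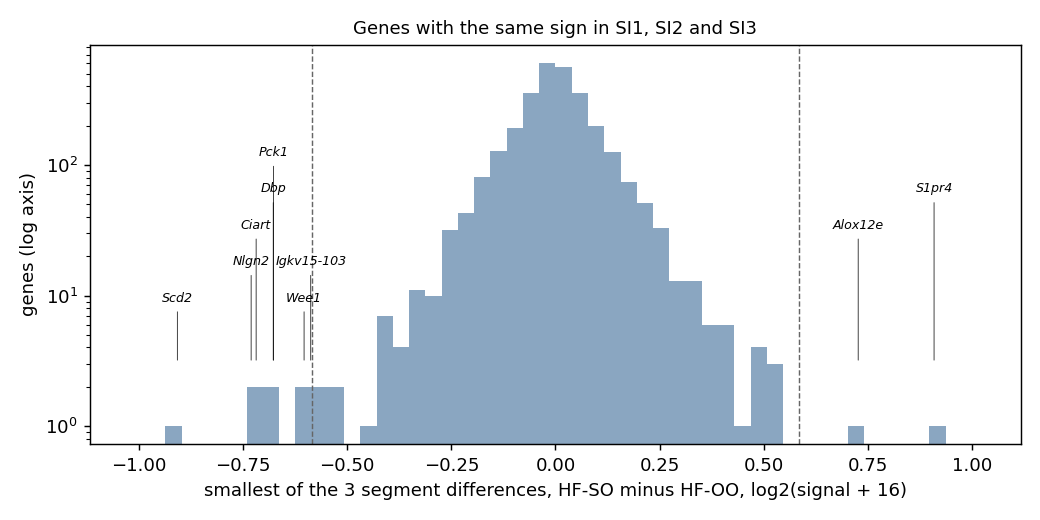
Histogram of the smallest of the 3 segment differences (x axis, HF-SO minus HF-OO, log2(signal + 16)) for genes with the same sign in every segment; the y axis counts genes on a log scale and the dashed lines mark 1.5-fold. The bulk lies near 0, with 7 named genes beyond the line on the lower side and 2 on the higher side.

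Fatty acid desaturation held the largest concordant difference on the lower side. Scd2, a stearoyl-CoA desaturase that makes monounsaturated from saturated fatty acids, read 842.3 after HF-OO and 441.6 after HF-SO in SI1. In SI2 it read 1759.4 and 532.2, and in SI3 9284.4 and 4889.1. Scd2 was therefore lower after HF-SO in each segment, by 0.91, 1.70 and 0.92 (1.88-fold in SI1), and on both diets its level was highest in SI3. After HF-PO, Scd2 read 888.4, 1610.2 and 10421.1, near its HF-OO signals. The other probe sets of Scd2 were also lower in every segment, by between 0.39 and 1.43. The mean over its 3 probe sets gave a smallest difference of -0.57, just short of the limit.

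Scd1, the main stearoyl-CoA desaturase of liver and fat, lay just outside the limit. Its signal was 306.2 after HF-OO and 161.3 after HF-SO in SI1, 1281.7 and 473.7 in SI2, and 1276.7 and 867.5 in SI3. The HF-SO signal was the lower one throughout, with differences of -0.86, -1.41 and -0.55. After HF-PO, Scd1 read 862.4, 2909.9 and 4355.8, above both other diets in each segment, whereas Scd2 was close between HF-PO and HF-OO. With the mean over both probe sets Scd1 passed the limit at -0.62. Srebf1, which encodes a transcription factor that drives lipogenic genes and is itself a target of liver X receptors, read 2398.5 and 1548.3 in SI1, 2911.9 and 1820.6 in SI2, and 1838.6 and 1261.9 in SI3. It was lower after HF-SO by 0.63, 0.67 and 0.54. After HF-PO, Srebf1 read 2661.5, 2486.5 and 1899.4, nearer to its HF-OO than to its HF-SO signals.

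Most other lipogenic genes differed less. Of the 17 genes compared from a list of 22 for fatty acid synthesis and desaturation, 3 were lower past 1.5-fold in SI1, 4 in SI2 and 1 in SI3, and none was higher past it. The backgrounds for lower genes were 1.8% of all genes in SI1, 2.49% in SI2 and 2.09% in SI3. The list medians were 0.06, 0.00 and -0.19, beside 0.01, -0.01 and -0.01 over all genes. Fasn, the fatty acid synthase, differed by 0.51, 0.33 and -0.21. Acaca, the acetyl-CoA carboxylase, differed by -0.07, -0.63 and -0.16. Fads2, the desaturase that starts the conversion of linoleic acid to longer polyunsaturated fatty acids, differed by -0.38, 0.20 and -0.05, and thus had no common direction.

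Of 17 listed circadian clock genes compared, 2 passed the limit in every segment, Dbp and Ciart, and so did Wee1, which is not on that list. Dbp, a clock output transcription factor that binds D-box elements, read 3299.6 after HF-OO and 1709.5 after HF-SO in SI1, 2957.0 and 1744.2 in SI2, and 777.3 and 480.2 in SI3. It was lower after HF-SO by 0.94, 0.76 and 0.68, and its other probe set was lower by 1.02, 0.92 and 0.56. Ciart, a repressor of CLOCK and ARNTL, read 197.6 and 113.9 in SI1, 308.6 and 164.9 in SI2, and 168.7 and 74.4 in SI3. It was lower by 0.72, 0.84 and 1.03. At 64 in place of 16 as the added constant its smallest difference was -0.56, and it fell short. Wee1, the kinase that restrains CDK1 and a known clock output, read 1085.7 and 709.1 in SI1, 707.7 and 415.3 in SI2, and 546.8 and 338.5 in SI3. Its differences were -0.60, -0.75 and -0.67; the second probe set gave -0.30, -0.33 and -0.33, and the mean of both, -0.45, did not pass. With 64 as the constant Wee1 gave -0.57.

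The promoters of Ciart, Dbp and Per3 are printed because these genes were lower in every segment and their sequences differ in the elements through which the clock acts. Both strands of the 250 bases before each RefSeq start (GRCm38.p6) were searched for the E-box CACGTG, bound by CLOCK and ARNTL, and the D-box TTATGNAA, bound by DBP, TEF and HLF. The motifs do not overlap each other, and matches are in capitals below. Of 32851 promoters of this length, 6.02% held the E-box and 3.07% the D-box. Ciart (chr3:95882229-95882478, minus strand) held 3 E-boxes, at 116, 58 and 44 bases before the start. Per3 (chr4:151044666-151044915, minus strand) held 2 D-boxes, at 205 and 158 bases before it. Dbp (chr7:45704997-45705246, plus strand) held neither in this window. Of the other clock genes lower in every segment and matched to a promoter, Tef held 1 E-box. Hlf, Cry2 and Nr1d2 held neither motif. Per1 held 1 E-box and 1 D-box before 1 of its starts and Cry1 held 1 E-box, yet neither gene had a common direction. A link between motif and direction was not tested. A match describes the letters and does not show a bound site.
Ciart: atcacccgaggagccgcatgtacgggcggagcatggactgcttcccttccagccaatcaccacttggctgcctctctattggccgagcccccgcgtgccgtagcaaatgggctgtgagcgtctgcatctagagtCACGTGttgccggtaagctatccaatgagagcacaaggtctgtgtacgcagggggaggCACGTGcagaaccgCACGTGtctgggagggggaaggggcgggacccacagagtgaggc
Per3: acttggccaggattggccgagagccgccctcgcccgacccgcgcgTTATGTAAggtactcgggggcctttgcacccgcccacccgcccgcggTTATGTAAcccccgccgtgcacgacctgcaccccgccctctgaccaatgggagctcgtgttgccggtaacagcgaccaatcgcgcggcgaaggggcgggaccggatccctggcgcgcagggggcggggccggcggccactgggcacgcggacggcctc
Dbp: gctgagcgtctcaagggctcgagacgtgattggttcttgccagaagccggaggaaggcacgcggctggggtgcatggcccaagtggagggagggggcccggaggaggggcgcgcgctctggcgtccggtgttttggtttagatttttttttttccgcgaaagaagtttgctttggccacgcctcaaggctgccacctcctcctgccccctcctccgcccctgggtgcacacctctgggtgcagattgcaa

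Among the period genes, which encode repressors of the clock, Per2 read 842.1 after HF-OO and 491.8 after HF-SO in SI1, 775.1 and 598.4 in SI2, and 676.0 and 435.4 in SI3. Per2 was lower by 0.76, 0.36 and 0.62, and each of its 3 probe sets was lower in every segment. Per3, with the D-boxes shown above, read 615.7 and 365.2 in SI1, 528.6 and 405.0 in SI2, and 317.8 and 216.1 in SI3. Its differences were -0.73, -0.37 and -0.52, and 1 of its 4 probe sets compared was higher in SI3, by 0.25. Both exceeded 0.32 in every segment (a looser limit on the log2 scale) but not the 1.5-fold limit. Per1 differed by 0.09, -0.40 and -0.22.

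Across the 17 clock genes compared of 19 listed, 8 were lower and 1 was higher in every segment, beside 13.5% and 13.3% of all genes. Past 1.5-fold, 5 were lower in SI1 (beside 1.8% of all genes), 3 in SI2 (2.49%) and 4 in SI3 (2.09%). Arntl was higher past it in SI1 and Nfil3, a repressor that competes for the D-box, in SI2 (0.70), beside 2.56% and 1.99% of all genes, and 0 in SI3. The medians were -0.13, -0.36 and -0.22. With a stricter brightness filter, at the 75th percentile, they were -0.05, -0.12 and -0.24. Tef and Hlf, which bind the same D-box as DBP, differed by -0.26, -0.56 and -0.25 and by -0.86, -0.54 and -0.02. Cry2, a cryptochrome repressor, differed by -0.06, -0.70 and -0.95. Nr1d2, a nuclear receptor that represses Arntl, differed by -0.47, -0.14 and -0.30, but its second compared probe set gave -0.12, 0.35 and 0.28. The place of Nr1d2 among the 8 lower genes thus rests on 1 probe set. Nr1d1, a relative of Nr1d2, differed by 0.21, -0.12 and -0.24. Arntl, whose peak opposes that of Dbp over the day, was higher by 1.04 in SI1 and 0.48 in SI2 and stood at -0.05 in SI3; its dimmer probe set gave -0.16, -0.05 and 0.82. The HF-PO signals of Dbp (2274.4, 1988.2 and 644.4) and of Per2 (621.4, 573.8 and 477.6) were below HF-OO in each segment, and those of Ciart (113.0, 185.6 and 66.8) were near those of HF-SO. For these genes HF-OO was the highest of the 3 diets in each segment. Diet and any difference in the time of sampling cannot be told apart.

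**Figure D2:**
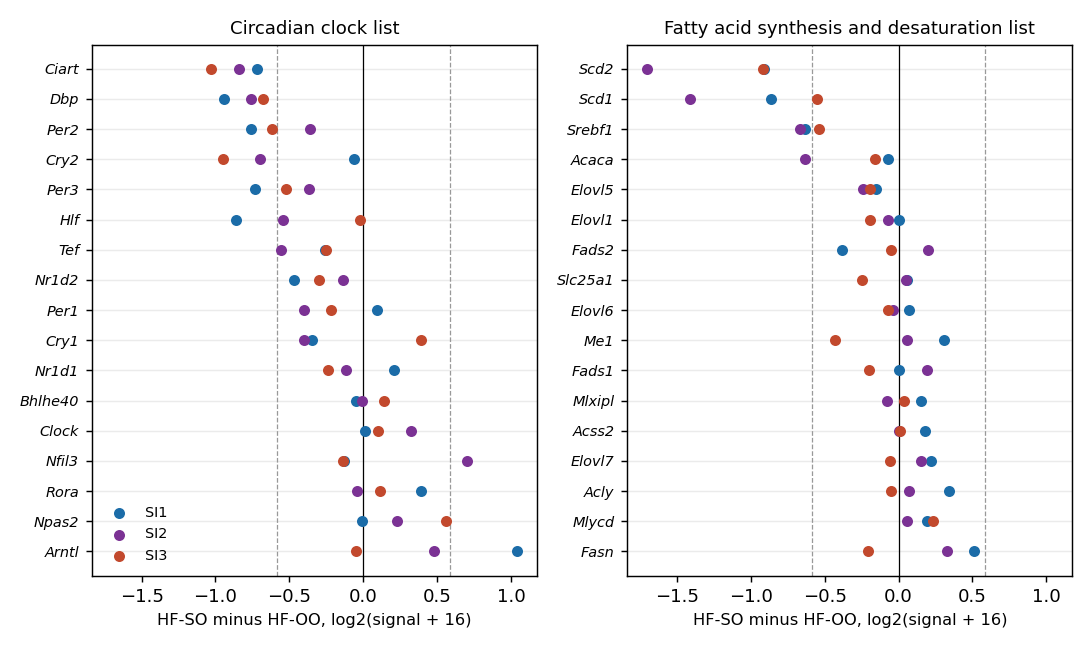
Difference HF-SO minus HF-OO (x axis, log2(signal + 16)) of each compared gene of the circadian clock list (left) and the fatty acid synthesis and desaturation list (right), 1 point per segment; dashed lines mark 1.5-fold. Ciart, Dbp and Scd2 lie left of the line in every segment, and most other lipogenic genes scatter around 0.

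Pck1, the cytosolic phosphoenolpyruvate carboxykinase of gluconeogenesis and glyceroneogenesis, read 2152.8 after HF-OO and 1248.2 after HF-SO in SI1, 4396.8 and 2430.0 in SI2, and 1022.2 and 633.6 in SI3. It was lower after HF-SO by 0.78, 0.85 and 0.68. Its second compared probe set was lower by 0.57, 1.05 and 0.82. The HF-PO signals of Pck1 (1908.2, 4275.0 and 1513.8) were near or above those of HF-OO. Pck1 was listed with brush border digestion and sugar handling. There 10 of 23 genes were lower in every segment and 0 were higher, beside 13.5% and 13.3% of all genes. The list medians were -0.05, -0.14 and -0.12. These counts have no size limit and can depend on array scaling. Anpep, among the 10, differed by -0.07, -0.05 and -0.09, and its segments no longer shared a sign after quantile normalisation.

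Nlgn2, a neuroligin that organises inhibitory synapses, read 252.7 and 137.0 in SI1, 241.9 and 139.5 in SI2, and 276.4 and 116.9 in SI3. It was lower after HF-SO by 0.81, 0.73 and 1.14. Its other probe set was too dim to be compared and differed by 0.25 in SI2, the opposite way. HF-PO gave 105.0, 110.0 and 319.1, so HF-PO was on the side of HF-SO in SI1 and SI2 and on that of HF-OO in SI3. Of 8 nerve and glia markers, 1 was bright enough to compare (Nos1, -0.22, 0.17 and 0.32).

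Igkv15-103, an immunoglobulin kappa variable segment made by B and plasma cells, read 2331.2 and 1348.1 in SI1, 1415.4 and 514.4 in SI2, and 389.0 and 253.6 in SI3. It was lower by 0.78, 1.43 and 0.59, and with 64 as the constant its smallest difference of -0.51 did not pass. Variable segments are near copies of each other, so a probe set may read several of them. Of the 14 immunoglobulin genes compared, 2 were lower and 1 was higher in every segment, beside 13.5% and 13.3% of all genes. Igkv15-103 itself is 1 of the 2 lower genes. The medians of the 14 were 0.03, -0.17 and 0.39. The summed signal of 11 B and plasma cell markers was 71254.3 after HF-OO and 76304.2 after HF-SO in SI1, 64558.8 and 60678.2 in SI2, and 48861.3 and 48366.7 in SI3. The part of these cells in the Igkv15-103 result was not tested. In scraped tissue, fewer cells of a type and less RNA per cell cannot be told apart.

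On the higher side, S1pr4, a sphingosine 1-phosphate receptor of lymphoid cells, read 43.0 after HF-OO and 94.7 after HF-SO in SI1, 50.2 and 148.3 in SI2, and 110.4 and 272.9 in SI3. It was higher after HF-SO by 0.91, 1.31 and 1.19. HF-PO gave 105.2, 121.6 and 138.9, so the HF-OO array was the lowest of the diets in each segment. In SI3 the HF-PO signal was nearer to HF-OO than to HF-SO. The 9 T and intraepithelial lymphocyte markers summed to 15724.2 and 16465.5 in SI1, 9464.0 and 9421.8 in SI2, and 5157.5 and 6266.2 in SI3. Of them 0, 1 and 1 were higher past 1.5-fold, beside 2.56%, 1.99% and 2.42% of all genes. In SI3, 1 was lower past it, beside 2.09% of all genes. Of 8 Peyer's patch and follicle markers 5 were higher and 0 lower in every segment, with medians of 0.02, 0.08 and 0.21, and of 11 B and plasma cell markers 4 were higher and 1 lower, beside 13.3% and 13.5% of all genes. These lists share Cr2 and Fcer2a. The part of any of these cells in the S1pr4 result was not tested.

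Alox12e, a 12-lipoxygenase that oxidises polyunsaturated fatty acids, read 113.3 and 197.9 in SI1, 72.2 and 159.0 in SI2, and 70.8 and 143.3 in SI3. It was higher after HF-SO by 0.73, 0.99 and 0.88. HF-PO gave 87.3, 139.6 and 80.8, which was below HF-SO in each segment. Both higher genes were dim: with 64 as the constant their smallest differences were 0.57 and 0.56, and neither passed. In eicosanoid and linoleate metabolism, 2 of 22 compared genes were higher and 5 lower in every segment (beside 13.3% and 13.5% of all genes), with medians of 0.04, -0.15 and -0.08. Alox12e was not on that list. Hpgd, which degrades prostaglandins, differed by -0.45, -0.20 and -0.09.

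**Figure D3:**
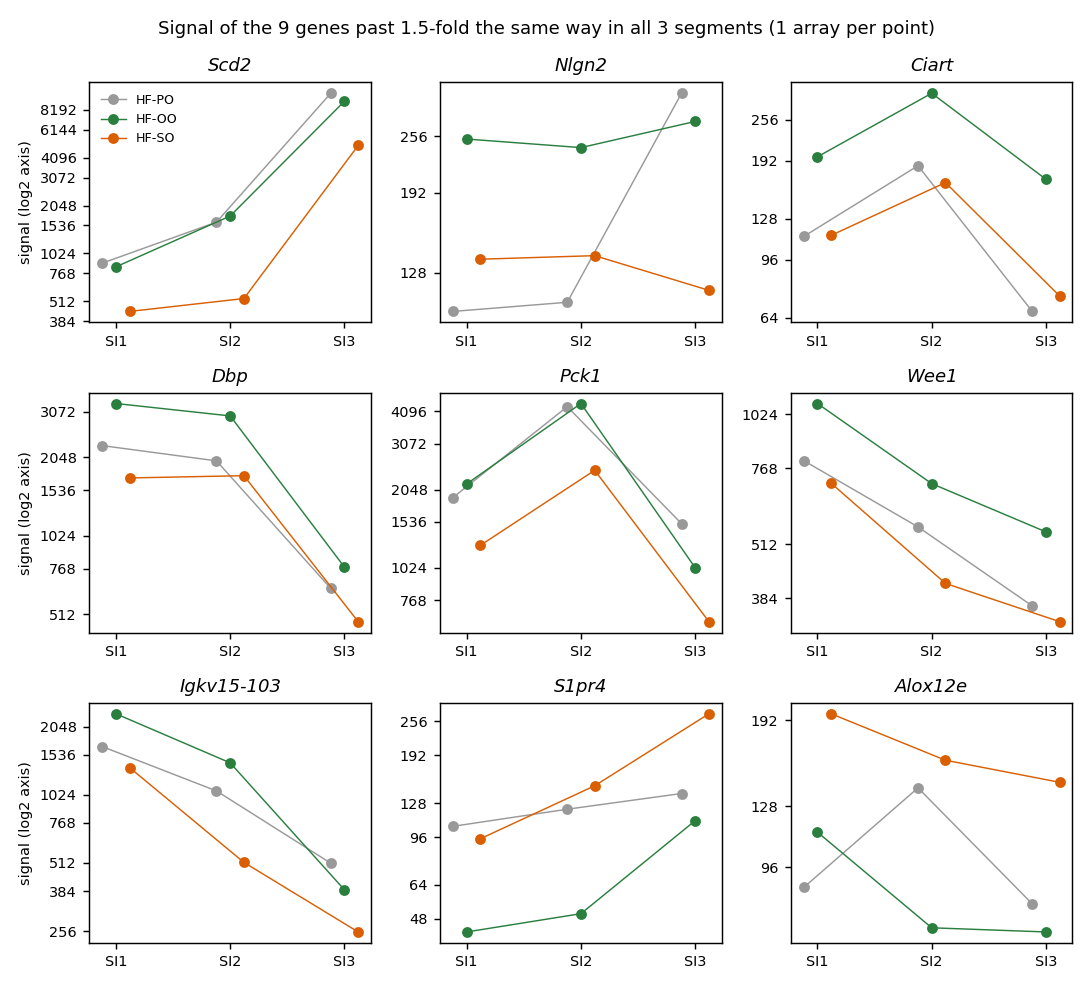
Signal (log2 axis) of the 9 genes past 1.5-fold the same way in every segment, by segment and diet; each point is 1 array of pooled RNA from 6 mice and lines join the segments of a diet. HF-SO lies below HF-OO in 7 panels and above it in those of S1pr4 and Alox12e, and HF-PO takes either side.

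The genes nearest the limit on the lower side were Wee1 and Igkv15-103 inside it, with smallest differences of -0.60 and -0.59 (then Pck1 and Dbp, both -0.68), and Capn12, Scd1 and Srebf1 outside it at -0.56, -0.55 and -0.54. On the higher side Alox12e at 0.73 was the nearest inside, and Mark1 (0.54), Polh (0.52) and Hk3 (0.51) were the nearest outside. The second compared probe set of Hk3 gave -0.47, -0.41 and 0.13, and with the mean of both its smallest difference was 0.15. At the looser limit of 0.32, 29 genes were higher (0.264%) and 30 were lower (0.273%) in every segment.

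Of the listed pathways, 1 of 12 heat shock, 1 of 19 immediate early, 2 of 29 interferon-response and 1 of 15 epithelial host defence genes were among those higher past the looser limit. Hspa1b, an inducible HSP70 chaperone, read 1066.6 after HF-OO and 1695.1 after HF-SO in SI1, 893.3 and 1416.1 in SI2, and 1909.3 and 2543.1 in SI3. It was higher by 0.66, 0.66 and 0.41, and all 3 of its probe sets were higher in every segment. Its neighbour Hspa1a, a near-identical copy that the probes may not tell apart, differed by 0.32, 0.77 and 1.02. Bag3, an HSP70 co-chaperone, was higher by 0.71, 0.40 and 0.24. The medians over the 12 heat shock genes compared, these 3 included, were 0.02, 0.05 and 0.01. Myc, a growth-promoting transcription factor, was higher by 0.38, 0.59 and 0.76. Zbp1, an interferon-induced sensor of nucleic acids, read 747.5 and 1053.5 in SI1, 283.7 and 512.3 in SI2, and 238.6 and 521.1 in SI3; it was higher by 0.49, 0.82 and 1.08, while its second probe set gave -0.04, 0.21 and 0.17. Igtp, an interferon-induced GTPase, was higher by 0.35, 0.58 and 0.36. The 29 interferon-response genes as a list had medians of 0.29, -0.01 and -0.05, so the median was farthest from 0 in SI1.

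On the lower side past the looser limit was Abca1, the transporter that exports cholesterol from the cell and a target of liver X receptors. It read 2690.9 after HF-OO and 940.4 after HF-SO in SI1, 5346.5 and 3692.0 in SI2, and 4157.5 and 3163.9 in SI3. The difference was -1.5 in SI1 (2.83-fold), -0.53 in SI2 and -0.39 in SI3, with all 3 probe sets lower in every segment. HF-PO gave 949.5, 3199.7 and 3477.9, near HF-SO. Of the 16 compared genes of sterol and bile acid transport, Abca1 included, 8 were lower and 3 higher in every segment, beside 13.5% and 13.3% of all genes. Past 1.5-fold, 2 were lower in SI1 (beside 1.8% of all genes), 2 in SI2 (2.49%) and 0 in SI3 (2.09%). Higher past it were 0 in SI1 (2.56%), 2 in SI2 (1.99%) and 1 in SI3 (2.42%). The list medians were -0.04, -0.17 and -0.10. Fabp6, the ileal bile acid binding protein, was among the 8 lower genes and among the 2 past 1.5-fold in SI1. There it read only 32.3 and 2.7. In SI3 it differed by -0.08, and after quantile normalisation its segments no longer shared a sign. Bco1, which cleaves beta-carotene to retinal, read 1224.2 and 941.0 in SI1, 1496.5 and 1186.2 in SI2, and 733.5 and 413.0 in SI3. It was lower by 0.37, 0.33 and 0.80, and its HF-PO signals of 394.1, 441.7 and 195.3 were lower still. Chac1 and Pdia4, genes of the unfolded protein and integrated stress responses, differed by -1.14, -0.37 and -0.80 and by -0.80, -0.49 and -0.43; the median over that list of 23 genes was between -0.08 and 0.00 in each segment.

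Few genes of fat handling itself passed 1.5-fold. None of 33 compared genes of fatty acid oxidation and PPAR alpha targets, and none of 11 of fatty acid uptake and activation, passed it in any segment. Of all genes, 4.36%, 4.47% and 4.51% passed it in either direction in SI1, SI2 and SI3. Among the brightest 10th of genes at most 0.546% did. The lists were not matched for brightness, so these low counts may not be particular to fat handling. Pdk4, which spares glucose by restraining pyruvate dehydrogenase, had one of the largest mean differences of the oxidation list, at -0.25, -0.47 and -0.30. Of 18 genes of chylomicron and triglyceride assembly, 1 passed, Apoc2 in SI3 (7920.7 and 4789.9, -0.72). Apob, the structural protein of chylomicrons, differed by -0.24, -0.20 and -0.33. The 20 cholesterol synthesis genes had medians of 0.24, -0.02 and -0.17. Cyp51, a demethylase of that pathway, read 909.3 and 1652.6 in SI1, 973.5 and 1158.6 in SI2, and 2737.8 and 2255.5 in SI3, with differences of 0.85, 0.25 and -0.28. Its second compared probe set gave 0.29, 0.27 and 0.11, so the lower value in SI3 rests on 1 probe set.

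**Figure D4:**
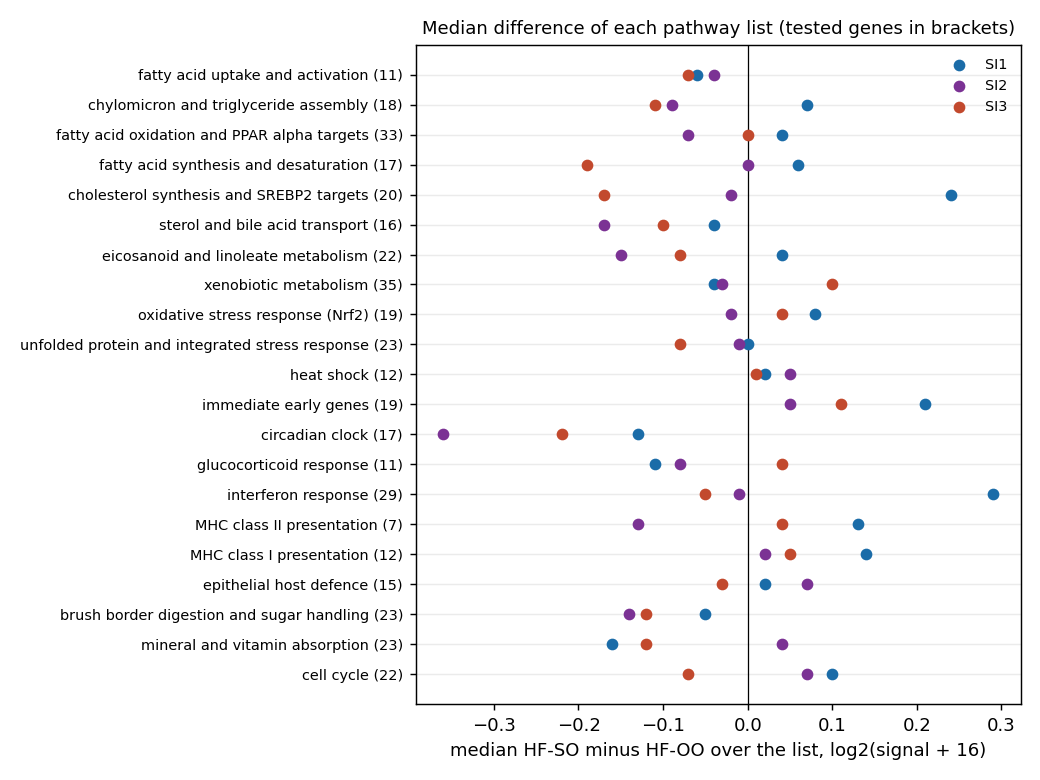
Median difference HF-SO minus HF-OO (x axis, log2(signal + 16)) over the compared genes of each pathway list, 1 point per segment, with the number of genes in brackets. Several lists lie below 0 in every segment. Among them are the clock list (-0.13, -0.36 and -0.22), sterol and bile acid transport (-0.04, -0.17 and -0.10) and brush border digestion (-0.05, -0.14 and -0.12). Cholesterol synthesis, interferon response and immediate early genes lie above 0.2 in SI1 alone.

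Some differences were large in some segments only. Cyp1a1, a detoxifying enzyme induced through the aryl hydrocarbon receptor, read 789.9 after HF-OO and 3020.5 after HF-SO in SI1, 220.7 and 261.6 in SI2, and 80.3 and 129.2 in SI3. It was higher by 1.91, 0.23 and 0.59. In SI3, 5 of 35 xenobiotic genes were higher past 1.5-fold, beside 2.42% of all genes, against 1 in SI1 (2.56%) and 0 in SI2 (1.99%). They were Cyp1a1, Cyp2c55 (0.86), Cyp3a11 (0.69), Gstm3 (0.60) and Ces1g (0.80). Whether the segments differ was not tested. Fkbp5, a glucocorticoid-induced co-chaperone, was lower by 0.46 and 0.75 in SI1 and SI2 and stood at 0.11 in SI3. Its second compared probe set gave -0.45, -0.78 and -0.12, so the sign in SI3 differed between probe sets.

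Most genes past the limit passed it in 1 segment: 647 were higher and 579 lower in exactly 1, and 56 and 50 in exactly 2. Across genes, which are not independent replicates, the differences in SI1 correlated with those in SI2 at a Pearson r of -0.03 and with those in SI3 at -0.00, and SI2 with SI3 at 0.09. In the 6634 brighter genes these were 0.07, 0.02 and 0.21. The share past 1.5-fold in either direction depended on brightness. It was between 18.3% and 19.0% in the dimmest of 10 equal groups of genes and at most 0.546% in the brightest. The 5 largest differences in each direction and segment made 30 entries, with Zap70 entered in both SI2 and SI3. In 24 entries the lower array had a signal under 64, and in 5 the gene had the same sign throughout.

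**Figure D5:**
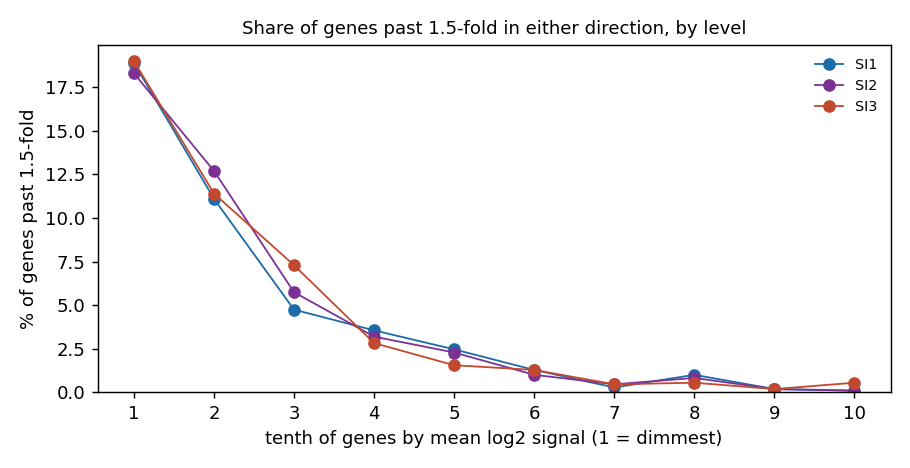
Percentage of genes past 1.5-fold in either direction (y axis) in 10 equal groups of genes by mean log2 signal over all arrays (x axis, 1 is the dimmest), 1 line per segment. The share drops from between 18.3% and 19.0% to at most 0.546% in each segment.

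The scraped tissue carried its defining markers on all arrays. The 6 enterocyte markers summed to between 192560.1 and 229406.0, and 0 of them passed 1.5-fold in any segment, nor did any of 8 goblet, 5 Paneth or 13 enteroendocrine markers. Fabp6, the ileal bile acid binding protein, read 32.3 and 2.7 in SI1 and 54912.5 and 52117.0 in SI3, as the segment labels have it. Stromal lists moved unevenly: fibroblast markers had medians of 0.14, -0.16 and 0.19, and smooth muscle -0.18, 0.28 and -0.09. Of 14 exocrine pancreas markers compared, 4 were lower and 1 was higher past 1.5-fold in SI2 (beside 2.49% and 1.99% of all genes), 3 were lower and 1 was higher in SI3 (2.09% and 2.42%), and 0 passed in SI1. Ctrb1 read 59.6 and 7.4 in SI2 and 121.0 and 71.8 in SI3, but 5154.6 and 5289.0 in SI1. Prss2 read 5123.0 and 6474.4 in SI1, but 77.4 and 33.8 in SI2 and 107.6 and 37.4 in SI3. Its compared probe sets differed in sign, from -1.83 to 0.30 in SI2 and from -1.21 to 1.86 in SI3. Ctrb1 and Prss2 were bright enough to compare through SI1, so their differences in SI2 and SI3 rest on low signals. No eosinophil, neutrophil or erythrocyte marker was bright enough to compare. The arrays were alike in scale, with median signals from 100.2 to 105.9, and 3' to 5' ratios from 1.185 to 1.305 for actin and from 0.7803 to 0.8709 for Gapdh.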

How the data were processed

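Mucosal RNA of 3 segments on 3 diets was measured on 9 Affymetrix arrays, 1 pool of 6 mice each. The deposited table holds linear signal intensity per probe set; the submitters' processing notes name MAS5, with no version or settings, and each array's mean trimmed by 2% at either end is 500.0, as the file's values show. Genes were named from the platform annotation: of 45037 probe sets analysed (64 array controls were left out), 34945 had 1 symbol, 932 several and 9160 none. Probe sets with a mean log2(signal + 16) over the 9 arrays of at least the median (6.80) were kept, 22519 in all, and the brightest stood for each of 10977 genes. Differences were taken within segments with Python 3.11.15, numpy 2.4.6 and pandas 2.3.3, and the counting was tested on simulated data. With 1 array per group no test was possible. Total counts do not exist for arrays; the number of arrays limits the precision.

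The comparison, the gene lists and the limits were chosen with earlier results of these data known. Genes were named by a rule: those past 1.5-fold in all segments, the members of each list past it or else the 2 with the largest mean difference, the 5 largest per segment and direction, the 5 with the most opposed segments, and the 3 nearest the limit on either side. Other members of the clock, lipogenic and xenobiotic lists, and genes past the looser limit of 0.32, were named after their values were seen, as were the printed promoters. Of 21 clock genes looked up, 17 had a RefSeq promoter entry. Alternatives were the added constant, the filter, the normalisation, the choice of probe set, the fold limit and leaving out a segment.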

Additional observations from a re-analysis of the deposited data

Results flagged for a closer look

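In 114 genes (1.04% of those compared) HF-SO differed from HF-OO past 1.5-fold in opposite directions in 2 segments. The 14 of them named by the rule are given here with the highest and the lowest log2 difference; with 1 array per group the difference between segments was not tested. Those with the widest gaps were Car1, a carbonic anhydrase (0.78 in SI1 and -3.73 in SI2), Zap70, a T cell kinase (3.06 in SI3 and -0.60 in SI1, where its other compared probe set gave -0.56 and 0.07), 4933435C09Rik (1.53 in SI2 and -1.98 in SI3), Rps27, a ribosomal protein (1.49 in SI1 and -1.58 in SI2) and Ttc38 (1.66 in SI2 and -1.42 in SI1). Pnmt, which makes adrenaline, had 1.68 in SI1 and -1.31 in SI3. Fbf1 had 2.03 in SI1 and -0.88 in SI2. Osbpl5, an oxysterol-binding protein, had 0.65 in SI3 and -2.18 in SI1, and Tbc1d2 had 2.05 in SI2 and -0.60 in SI1. Krtap12-1 had 0.96 in SI3 and -1.83 in SI2, Kcnk10 0.73 in SI2 and -1.98 in SI3 (-0.04 and -0.03 by its other compared probe set), and St7 1.21 in SI2 and -1.57 in SI3. Among the marker genes, Cd3e of T cells had 0.65 in SI2 and -1.73 in SI3, while Cd3d, of the same receptor complex, had 0.40 and 1.26 there. Col1a1 of fibroblasts had 1.44 in SI3, where both signals were low (16.8 and 72.9), and -0.61 in SI2. Low signals were common among the others too. After HF-SO, Car1 read 7.3 in SI2, Kcnk10 7.7 and 4933435C09Rik 16.3 in SI3, and Osbpl5 20.7 in SI1. Fbf1, Tbc1d2, Ttc38, Pnmt, St7 and Cd3e also had a signal under 64 in a segment given here. Zap70, Rps27 and Krtap12-1 did not.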

How the results depend on the processing

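No paired analysis was possible because every group holds 1 array. The 2 higher and 7 lower genes were the same counts after quantile normalisation and after centring each array. A constant of 1 gave 3 and 8, and 64 gave 0 and 4. Without the filter 71 and 75 of 18193 genes passed, and with a filter at the 75th percentile 0 and 5 of 6634, since S1pr4, Alox12e, Ciart and Nlgn2 were then not compared. Averaging the probe sets of a gene gave 2 and 6. A looser limit of 0.32 (log2) and one of 2-fold gave 29 and 30, and 0 and 0. Asking for 2 segments only gave 17 and 35 without SI1, 23 and 16 without SI2, and 22 and 20 without SI3. Counting every probe set, an alternative chosen after seeing the data, gave 5 and 10. Within single segments, the higher and lower counts of 281 and 198 (SI1), 218 and 273 (SI2) and 266 and 229 (SI3) became 141 and 106, 115 and 154, and 146 and 117 with a constant of 64. They were 1952 and 1400, 1336 and 1897, and 1630 and 1581 with no filter, and 31 and 28, 25 and 31, and 25 and 27 with the stricter one. They were 1046 and 795, 894 and 1001, and 933 and 827 at the looser limit, and 54 and 40, 45 and 52, and 57 and 44 at 2-fold. The cause of these shifts was not tested beyond the fewer or more genes compared. Of 573 values for single genes and list medians under the alternatives, 543 moved by less than the SD over the 3 segments and 30 moved further. Of those past 1.5-fold, 0 changed sign. A change of sign was counted only where every segment of a gene reversed together, and leaving out a segment could not produce it. The count of 0 therefore says little about stability.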
